A study of Homo sapiens with 22 samples.

Results

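The 39 genes described here are type I interferon-stimulated genes and RNA sensors, taken by symbol from the 58735 genes of the deposited count table. They are listed by symbol, with no threshold on a measured value, although the list was drawn up with earlier results of these data known. All 39 were found, DDX58 (RIG-I) under its older symbol, and 37 of them had enough counts to be tested among 17652 genes. RNA was sequenced from 22 tumours grown from H2110, a human lung adenocarcinoma cell line whose genotype is labelled WT. Tumours of about 300 mm³ received an agent by mouth for 3 days. There were 6 tumours on Vehicle (replicates 1, 2, 3, 5, 6 and 7) and 4 on each drug. RMC-7977 at 10 mg/kg inhibits RAS proteins in their active state. RMC-4550 at 30 mg/kg inhibits the phosphatase SHP2, which acts upstream of RAS. Trametinib at 0.3 mg/kg and Cobimetinib at 3 mg/kg both inhibit the MEK kinases downstream of RAS. All groups come from a single cell line, and neither the host species nor the number of host animals is given in the sources used here. Doses differ between the drugs, so each difference between drugs holds at these doses only.

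Interferons are secreted proteins that bind a receptor on the same or a neighbouring cell and start a JAK-STAT signal. STAT2 and IRF9 belong to the factor that then binds the interferon-stimulated response element (ISRE) and switches on antiviral genes. Among these genes, RNA sensors feed back into interferon production, IFIT and OAS proteins act on foreign RNA, and ISG15 is a small modifier that HERC5 attaches to proteins and USP18 removes. Tumour cells can carry part of this programme without infection.

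The ISRE is the sequence feature that most of these genes share. Promoter windows of 300 bases, from 250 before to 50 after the start, were available for 31 of the 39 members (RefSeq, GRCh38.p14). The ISRE core, written GAAA, then 2 bases of any kind, then GAAA, and searched on both strands, lay in the windows of 20 of these 31 genes. By window, it was present in 24 of 42 member windows (57.1%) and in 1255 of all 35116 promoter windows (3.57%). The AP-1 motif TGANTCA, searched the same way, was found for 4 of the 31 genes (9.52% of member windows against 7.71% of all). The ETS motif CCGGAAGT was found for 0 of 31, against 4.14% of all windows. No window was available for OASL, IFIT2, MX2, IRF7, DHX58, OAS2, USP18 and TRIM22, so these are not shown. The 60-base stretches below are from those members with a window on which the comparisons between drugs turn. They run 5′ to 3′ on the strand of the gene, and capitals mark the ISRE core, also where it lies on the other strand and reads as 2 TTTC blocks.
ISG15 (chr1:1013365-1013424, plus strand): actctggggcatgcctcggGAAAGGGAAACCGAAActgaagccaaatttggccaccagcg
IFIT3 (chr10:89327850-89327909, plus strand): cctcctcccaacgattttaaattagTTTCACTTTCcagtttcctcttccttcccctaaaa
HERC5 (chr4:88457020-88457079, plus strand): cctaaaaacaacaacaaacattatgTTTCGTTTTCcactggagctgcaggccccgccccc
BST2 (chr19:17405720-17405779, minus strand): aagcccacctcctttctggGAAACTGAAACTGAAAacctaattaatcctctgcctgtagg
IFI6 (chr1:27672251-27672310, minus strand): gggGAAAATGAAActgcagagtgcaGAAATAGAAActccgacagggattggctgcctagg
IFI27 (chr14:94110616-94110675, plus strand): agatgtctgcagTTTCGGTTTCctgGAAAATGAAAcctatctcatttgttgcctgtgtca
SAMD9 (chr7:93118081-93118140, minus strand): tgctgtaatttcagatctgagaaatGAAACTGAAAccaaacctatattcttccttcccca
ISG15 and BST2 each carry a pair of overlapping cores that share a GAAA. PARP9 and DTX3L, neighbours transcribed in opposite directions, share the same core at chr3:122564332-122564341. These matches are descriptions of sequence, not measured binding.

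The libraries held 7761987 to 17265754 counts. Trametinib replicate 4 was the shallowest, with a TMM scaling factor of 0.837 against 0.961 to 1.07 in the others. Vehicle replicate 1, RMC-4550 replicate 1 and RMC-7977 replicate 3 also stand apart, in that AT-rich genes read high: the rank correlation across genes between a library's deviation and GC content was -0.54, -0.58 and -0.42. Trametinib replicates 1 and 2 had values of -0.48 and -0.41, whereas the other 5 Vehicle tumours lay between 0.31 and 0.43. The fit without 4 libraries left out Trametinib replicate 4, Vehicle replicate 1, RMC-4550 replicate 1 and RMC-7977 replicate 3. These were picked by name, with no cutoff on the correlation, and Trametinib replicates 1 and 2 were kept despite values like that of RMC-7977 replicate 3. Levels below are CPM, read counts scaled to library size by the TMM method. The targeted pathway was checked with 10 MAPK output genes, whose summed level was 514 to 875 CPM on Vehicle and 256 to 360 on RMC-7977. It was 227 to 569 CPM on RMC-4550, 146 to 446 on Trametinib and 384 to 555 on Cobimetinib. Of 9 such genes tested, 6 were called lower on RMC-7977 (0.748% of all genes called), 1 on RMC-4550 (0.0283%), 0 on Trametinib (0%) and 0 on Cobimetinib (0%) than on Vehicle by edgeR, with 7, 7, 8 and 3 at an unadjusted p under 0.05. With the replicate number as a block, 0 of the 9 were called in each of these 4 comparisons. The epithelial marker sum was high in all tumours (3047 to 5982 CPM).

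The programme was present at a moderate level in untreated and treated tumours alike, and its members spanned a wide range. Per kilobase of exon, ISG15, the small modifier, was the highest member with a mean of 79.6 CPM over the 22 tumours. IFI6, a mitochondrial survival protein, followed with 46.1 CPM per kilobase and BST2 (tetherin), which holds budding virus at the cell surface, with 41.6. OAS1 had 26.5, OAS3 17.6, DTX3L 16.7, PARP9 11.5 and STAT2 11.2 CPM per kilobase. PARP14 had 9.68, USP18 7.66, IRF7 7.36, DDX58 6.91 and SAMD9 6.48 CPM per kilobase. At the other end stood OAS2 with 0.31, TRIM22 with 0.25 and MX2 with 0.15 CPM per kilobase. Neighbours in this order were often not separable: IFI6 had 46.6 ± 20.3 CPM per kilobase on Vehicle and BST2 41.5 ± 16.6 (SD, n = 6). The pair left untested was nearly silent. XAF1 had 0 to 58 counts and was at 0 in 5 libraries, and UBE2L6, the conjugating enzyme for ISG15, had 0 to 19 counts and was at 0 in 12. For both, the highest count came from Trametinib replicate 4.

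**Figure D1:**
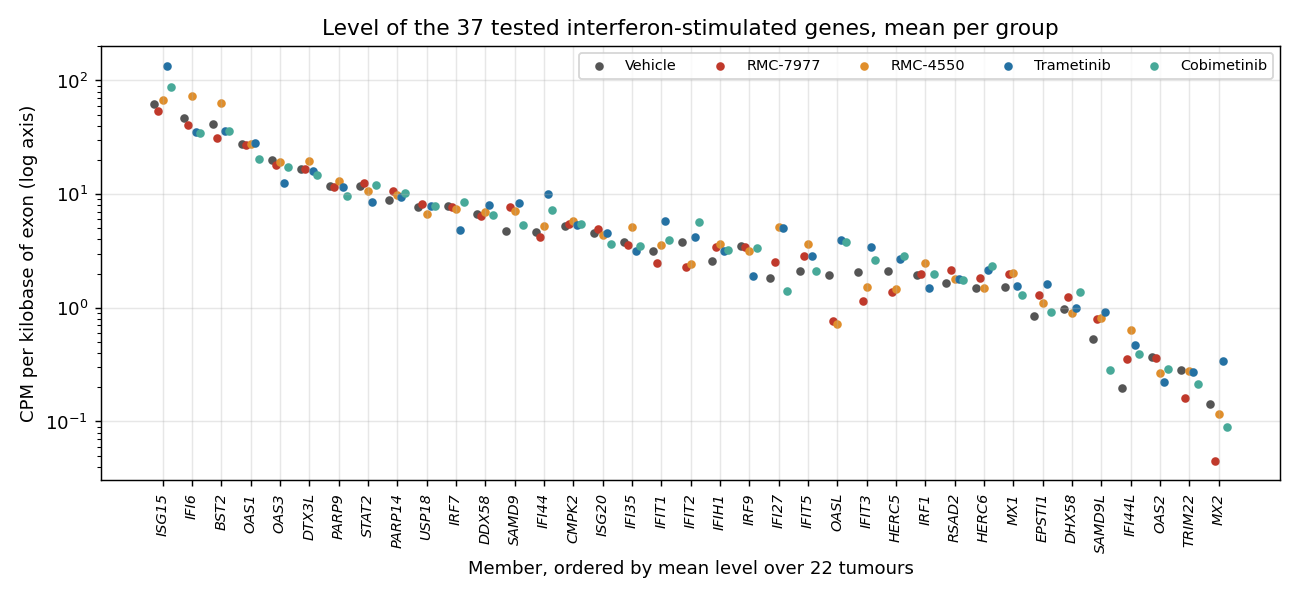
Mean level of each of the 37 tested interferon-stimulated genes in CPM per kilobase of exon (log axis), 1 point per treatment group, genes ordered by their mean over 22 tumours. Levels run from 79.6 for ISG15 to 0.15 for MX2, and for most genes the 5 groups lie close together, whereas OASL and MX2 spread widely.

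No interferon-stimulated gene passed the threshold in any of the 10 comparisons. With edgeR's quasi-likelihood test and Benjamini-Hochberg adjustment over 17652 genes, 0 of the 37 tested members had an adjusted p under 0.05, and the smallest was 0.0582 (OASL, RMC-7977 against Trametinib). Unadjusted p-values under 0.05 were found for 2 to 10 members per comparison. Between drugs they belonged to 2 members for RMC-7977 against RMC-4550 (7.39% of all genes), 9 against Trametinib (18.2%) and 5 against Cobimetinib (7.45%). For RMC-4550 there were 9 against Trametinib (12.3%) and 10 against Cobimetinib (6.2%). DESeq2 called 0 to 4 members per comparison, beside 0.00567% to 4.32% of all genes. Limma with library weights, which called far more genes of all kinds, called 5 members for RMC-7977 against Vehicle (16.7% of all genes), 0 for RMC-4550 (0.64%), 12 for Trametinib (44.6%) and 3 for Cobimetinib (2.27%). Between drugs it called 2 members for RMC-7977 against RMC-4550 (5.31%), 10 against Trametinib (30%) and 6 against Cobimetinib (8.7%). For RMC-4550 it called 7 against Trametinib (21.1%) and 4 against Cobimetinib (3.51%), and 9 for Trametinib against Cobimetinib (37.4%). That fit weighted Trametinib replicate 2 at 8.82, against 0.85, 0.79 and 0.053 for replicates 1, 3 and 4. Its values on Trametinib thus rest mainly on replicate 2. The mean log2 CPM over the 37 members was 3.86 ± 0.16 on Vehicle (SD, n = 6) and 3.81 ± 0.29 on RMC-7977 (n = 4). It was 3.99 ± 0.22 on RMC-4550, 4.00 ± 0.18 on Trametinib and 3.93 ± 0.16 on Cobimetinib (n = 4 each). The widest gap between group means, from RMC-7977 to Trametinib, was smaller than the SD of RMC-7977 and RMC-4550 and larger than that of the other 3 groups, and was not tested. In tests on simulated counts for the drugs against Vehicle, 63.64% to 71.21% of 4-fold changes and 16.42% to 31.34% of 2-fold changes were recovered. Of 1.5-fold changes, 0% to 7.463% were recovered. The simulated libraries had no GC tendency and none stood apart, so these shares need not hold for the real tumours. Recovery between drugs was not assessed.

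**Figure D2:**
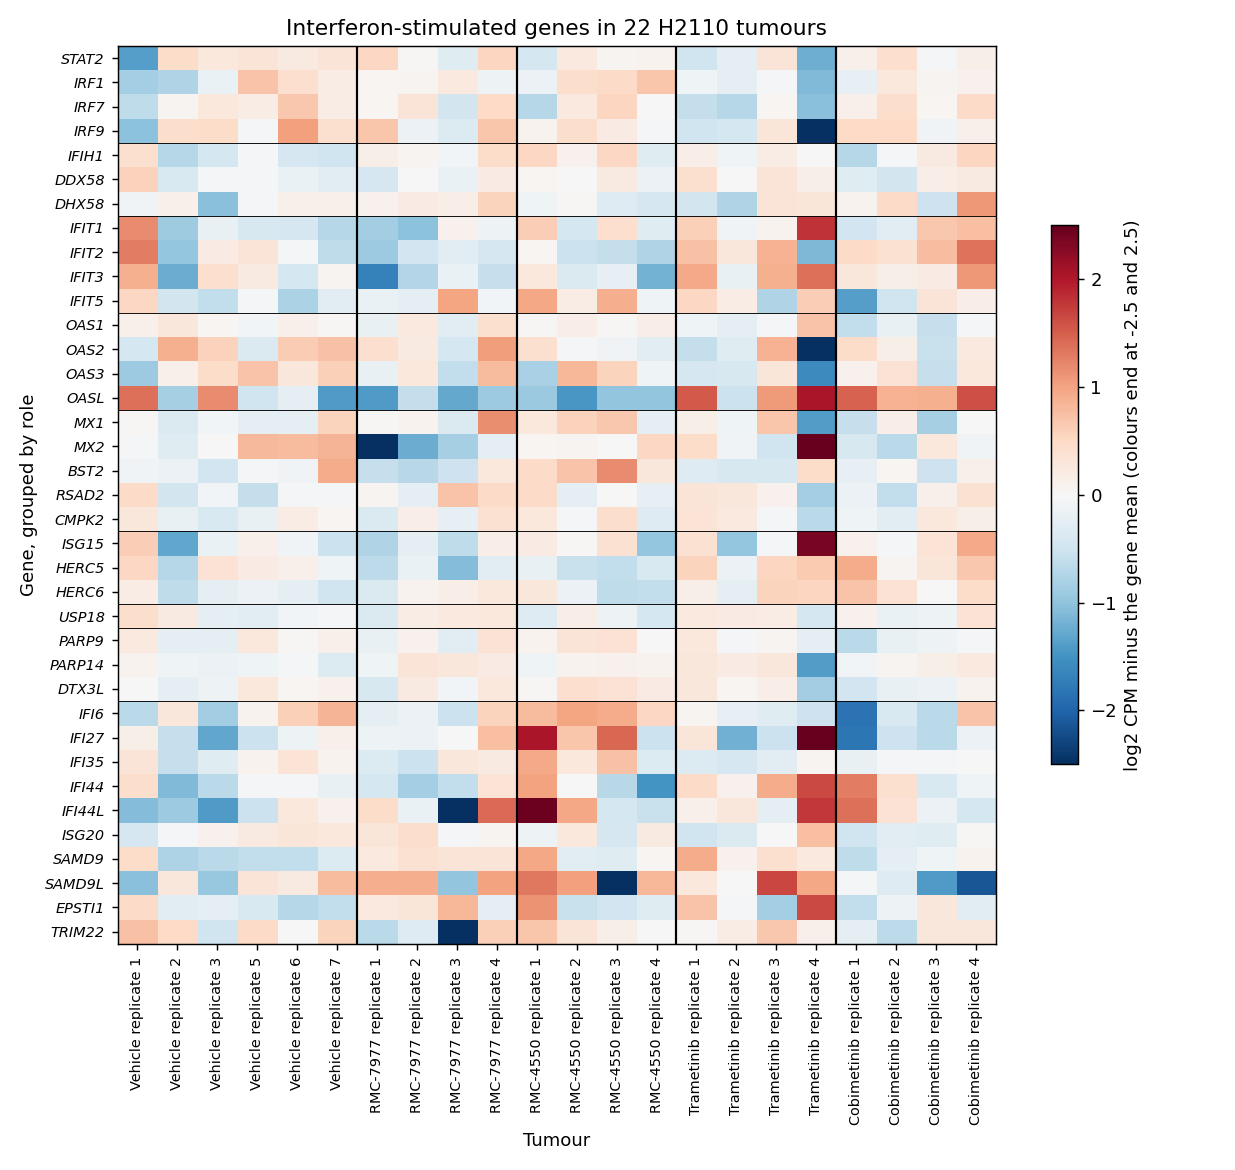
Log2 CPM of each tested member minus its mean over all 22 tumours (colour, ending at -2.5 and 2.5), genes in rows by role and tumours in columns by group. No treatment group forms a uniform block, OASL is low in all 8 tumours on RMC-7977 or RMC-4550, and the column of Trametinib replicate 4 differs from its neighbours.

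Against Vehicle, RMC-7977 left the members balanced, with 18 positive and 19 negative log2 fold changes (49.3% of all genes were positive) and a median of -0.02 against -0.01 for all genes. Of all tested genes 0.748% were called in this comparison and of the members 0. Unadjusted p-values under 0.05 belonged to 5 of 37 members, against 10.3% of all genes, 1 positive (SAMD9) and 4 negative (OASL, HERC5, IFIT3 and MX2). Under RMC-4550 22 members were positive and 15 negative, with a median of 0.12 against -0.01 for all genes (49.3% of them positive). The share of all genes called was 0.0283%, and 7 members had an unadjusted p under 0.05 against 4.24% of all genes. Here IFI27, BST2, SAMD9, IFIT5 and IFI44L were positive and OASL and HERC5 negative. Under Trametinib 23 were positive and 14 negative with a median of 0.09 (49.6% of all genes positive), and 0% of all genes were called. The 8 members with an unadjusted p under 0.05, against 18.8% of all genes, were 7 positive (ISG15, SAMD9, IFI44, IFI27, HERC6, OASL and EPSTI1) and 1 negative (IRF7). Under Cobimetinib 20 were positive and 17 negative with a median of 0.02 (48.8% of all genes positive), and 0% of all genes were called. HERC6 and OASL were positive and OAS1 negative among the 3 members with an unadjusted p under 0.05, against 3.3% of all genes. In each of these 4 comparisons, 0 members separated the drug from Vehicle without overlap, against 4.12%, 1.42%, 1.17% and 1.48% of all genes in the order given. The 4 comparisons share the Vehicle tumours.

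**Figure D3:**
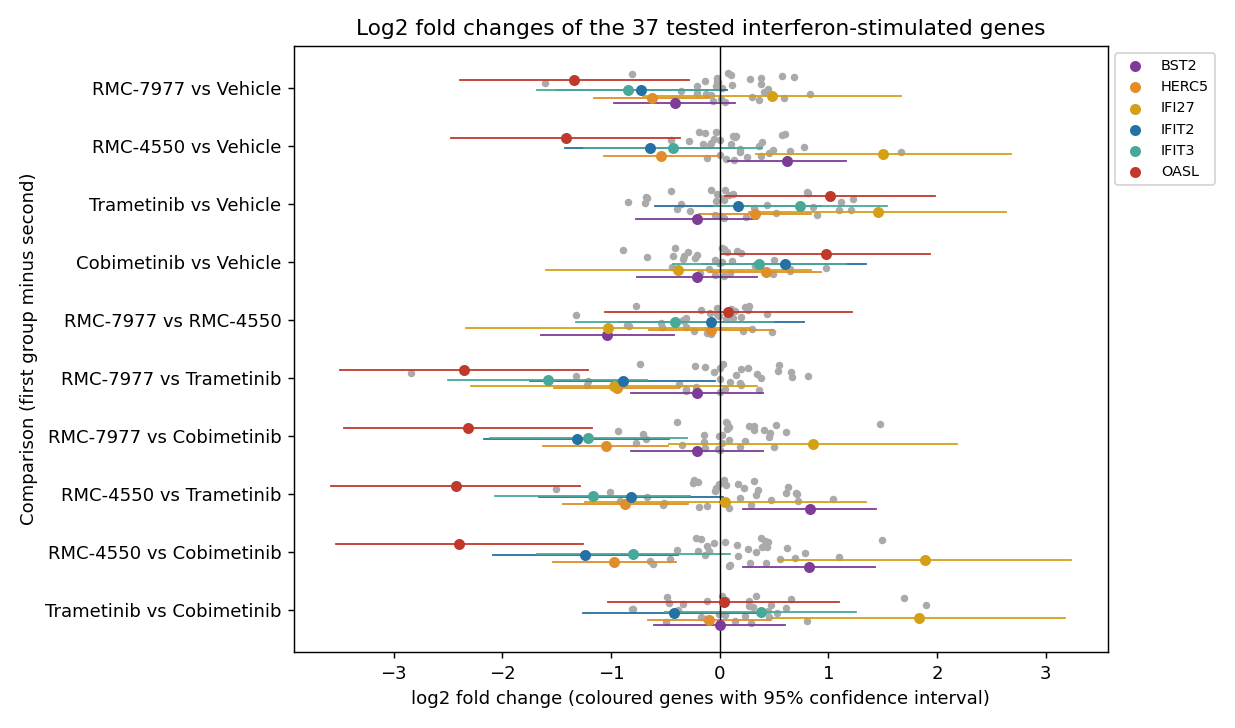
Log2 fold change (first group minus second) of the 37 tested members in 10 comparisons, 1 point per gene, with 6 genes in colour and their 95% confidence intervals. OASL lies near -2.4 in each of the 4 comparisons of RMC-7977 or RMC-4550 with a MEK inhibitor and near 0 within each pair.

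OASL gave the largest differences that did not rest on a single tumour. It encodes a member of the OAS family that lacks synthetase activity and enhances RIG-I signalling (ENSG00000135114, chr12:121019111-121039242, minus strand, hg38). OASL had 2.00 to 14.8 CPM on Vehicle, with a median of 4.3. Under RMC-7977 the 4 tumours had 2.00, 3.64, 2.21 and 2.91 CPM, and on RMC-4550 2.84, 1.93, 2.73 and 2.74 CPM. Under Trametinib OASL had 16.4, 3.81, 11.8 and 23.5 CPM, and on Cobimetinib 15.7, 10.4, 10.4 and 17.4 CPM. The highest RMC-7977 value, 3.64, was close to the lowest Trametinib value, 3.81. All 8 tumours on the RAS or SHP2 inhibitor lay below all 8 on a MEK inhibitor, and the Vehicle tumours spanned both ranges. How many of all genes separate in this way was not computed. The log2 fold change of OASL was -2.35 ± 0.55 (SE) for RMC-7977 against Trametinib (95% interval -3.50 to -1.21), with an adjusted p of 0.0582 by edgeR's quasi-likelihood test. Against Cobimetinib it was -2.31 ± 0.55 (adjusted p = 0.0778, edgeR). For RMC-4550 it was -2.43 ± 0.55 against Trametinib (adjusted p = 0.138, edgeR) and -2.39 ± 0.55 against Cobimetinib (adjusted p = 0.119, edgeR). The drugs within each class were close: OASL differed by 0.08 between RMC-7977 and RMC-4550 (95% interval -1.06 to 1.22) and by 0.04 between Trametinib and Cobimetinib (-1.03 to 1.10). Against Vehicle the log2 fold changes of OASL were -1.34 and -1.42 for RMC-7977 and RMC-4550, and 1.01 and 0.98 for Trametinib and Cobimetinib.

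The call for OASL depended on the method and on single libraries. Fitted with only the 2 groups compared, edgeR called IFIT2 and OASL lower for RMC-7977 (1.64% of all genes called) and OASL for RMC-4550 (0.134%) against Cobimetinib. DESeq2 gave OASL adjusted p-values of 0.00146 and 0.0028 for RMC-7977 against Trametinib and Cobimetinib, and 0.00346 and 0.00269 for RMC-4550. With edgeR's quasi-likelihood test OASL passed for RMC-7977 against Trametinib without Trametinib replicate 1, 2 or 3 (adjusted p = 0.0474, 0.0212 and 0.0234), and all-gene calls rose there from 0.408% to 2.32%, 3.34% and 7.07%. It also passed without Vehicle replicate 1 (adjusted p = 0.0398, edgeR, with 0.47% of all genes called) and without Vehicle replicate 7 (0.0494, with 0.29%). Against Cobimetinib OASL passed for RMC-7977 without Vehicle replicate 1 (0.357% of all genes called), Trametinib replicate 2 (0.242%) or Trametinib replicate 4 (1.12%), and for RMC-4550 without Trametinib replicate 4 (0.501%). Without Trametinib replicate 4 the log2 fold change of OASL for RMC-7977 against Trametinib was -1.96 (adjusted p = 0.181, edgeR). With library weights, limma gave OASL -0.71 for RMC-7977 against Trametinib (adjusted p = 0.253). There Trametinib replicate 2, the lowest of its group for OASL, had by far the largest weight. Limma still called OASL lower in RMC-7977 (8.7% of all genes called) and RMC-4550 (3.51%) against Cobimetinib.

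IFIT2, IFIT3 and HERC5 likewise had lower means on RMC-7977 and RMC-4550 than on either MEK inhibitor, with smaller differences than OASL. IFIT2 and IFIT3 encode proteins that bind viral RNA or each other, and HERC5 is the main ligase for ISG15. IFIT2 (ENSG00000119922, chr10:89283694-89309276) had 6.76 to 32.7 CPM on Vehicle, with a median of 14.2. It had 7.06, 9.58, 11 and 10.0 CPM on RMC-7977 and 13.9, 9.20, 8.84 and 7.87 on RMC-4550. Under Trametinib IFIT2 had 22.4, 16.4, 24.7 and 6.08 CPM, and on Cobimetinib 18.7, 17.6, 22.9 and 34.7. All 4 Cobimetinib tumours lay above all 8 on RMC-7977 or RMC-4550, whereas Trametinib replicate 4 was the lowest of all for this gene. For IFIT2 the log2 fold change was -1.32 ± 0.41 for RMC-7977 (adjusted p = 0.251, edgeR) and -1.24 ± 0.41 for RMC-4550 (adjusted p = 0.423, edgeR) against Cobimetinib.

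IFIT3 (ENSG00000119917, chr10:89327894-89340971) had 2.01 to 9.32 CPM on Vehicle, with a median of 5.48. It had 1.43, 2.93, 4.42 and 3.25 CPM on RMC-7977 and 5.94, 3.80, 4.27 and 2.11 on RMC-4550. Under Trametinib it had 9.64, 4.34, 9.28 and 13.1 CPM, and on Cobimetinib 6.08, 5.50, 5.71 and 10.6. The RMC-7977 tumours lay below all Cobimetinib tumours and overlapped those on Trametinib narrowly. For IFIT3 the log2 fold change was -1.58 ± 0.44 for RMC-7977 against Trametinib (adjusted p = 0.0917, edgeR). IFIT1, of the same family, overlapped between all 5 groups. It had 8.20, 7.29, 16.2 and 13.8 CPM on RMC-7977 and 10.7, 12.5, 24.3 and 25.5 on Cobimetinib. The range of IFIT1 was 11.1 to 23.1 CPM on RMC-4550, 14.1 to 53.1 on Trametinib and 8.13 to 34.2 on Vehicle. The genes IFIT1, IFIT2 and IFIT3 lie within the span of LIPA on the opposite strand. Whether their exons overlap those of LIPA was not examined. Where exons do overlap, reads from the 2 strands cannot be told apart without the strand setting of the counting.

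HERC5 (ENSG00000138646, chr4:88457117-88506163) had 5.63 to 13.4 CPM on Vehicle, with a median of 10.5. It had 5.91, 8.32, 4.33 and 7.68 CPM on RMC-7977 and 8.26, 6.37, 6.04 and 7.17 on RMC-4550. Under Trametinib it had 13.8, 8.42, 13.8 and 14.9 CPM, and on Cobimetinib 18, 9.91, 11.6 and 15.0. As for OASL, all 8 tumours on RMC-7977 or RMC-4550 lay below all 8 on a MEK inhibitor. For HERC5 the margin was narrow, 8.32 CPM on RMC-7977 against 8.42 on Trametinib. The share of all genes that separate in this way was not computed, and both genes were chosen after their values were seen. For HERC5 the log2 fold change was -1.05 ± 0.28 for RMC-7977 against Cobimetinib (adjusted p = 0.134, edgeR) and -0.95 ± 0.28 against Trametinib (adjusted p = 0.0992, edgeR). For RMC-4550 it was -0.97 ± 0.28 against Cobimetinib (adjusted p = 0.295, edgeR) and -0.87 ± 0.28 against Trametinib (adjusted p = 0.214, edgeR). HERC6, the neighbouring gene, had 16.8, 13.1, 10.1 and 14 CPM on Cobimetinib, above the 6.52 to 11.6 on Vehicle in 3 of 4 tumours (log2 fold change 0.65, adjusted p = 1 with edgeR).

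Few members had groups that did not overlap, and their share was set beside that of all genes. Of 37 members 2 were lower and 0 higher in RMC-7977 against Trametinib, where 6.14% of all genes did not overlap and 0.408% were called. Against Cobimetinib 4 were lower and 1 (SAMD9) higher, beside 10.5% and 0.278% of all genes. RMC-4550 had 2 lower and 1 (IFI6) higher than Trametinib, beside 3.98% and 0%. It had 3 lower and 3 (BST2, OAS1 and PARP9) higher than Cobimetinib, beside 8.3% and 0.0283%. DESeq2 called HERC5, OASL, IFIT3 and MX2 lower in RMC-7977 against Trametinib (3.33% of all genes called lower), and IFIT2, HERC5 and OASL against Cobimetinib (0.538%). For RMC-4550 it called OASL lower against Trametinib (0.634%) and HERC5 and OASL against Cobimetinib (0.187%). Without the 4 libraries that stand apart, edgeR called IFIT2, HERC5, OASL and IFIT3 lower in RMC-7977 against Cobimetinib, with adjusted p-values of 0.0075, 0.0494, 0.031 and 0.0452 (1.31% of all genes called lower). With the same libraries left out, it called IFIT2, HERC5 and OASL lower in RMC-4550 against Cobimetinib (0.0175, 0.0492 and 0.0427, with 0.203% of all genes called lower). It called IFIT2 and IFIT3 lower in RMC-7977 against Trametinib (0.025 and 0.0348, with 1.71%).

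**Figure D4:**
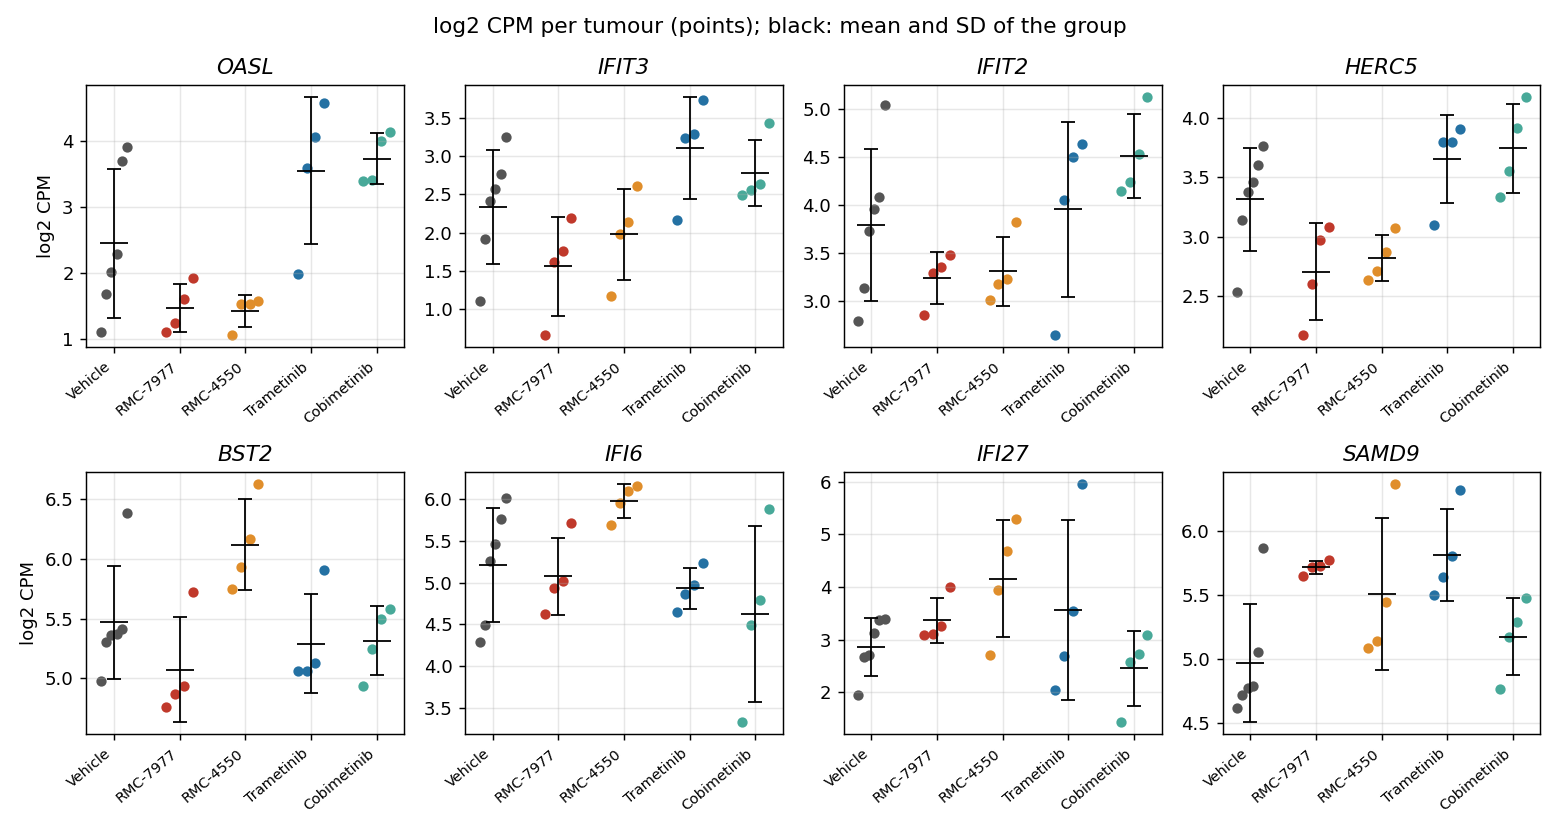
Log2 CPM of 8 members in each tumour (points, by group), with the mean and SD of the group in black. In the upper row RMC-7977 and RMC-4550 lie below Cobimetinib for OASL, IFIT2 and HERC5, and in the lower row RMC-4550 lies highest on average for BST2, IFI6 and IFI27.

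Markers of other cell types also differed between groups. The sum of 12 leukocyte markers was 7.34 to 10.6 CPM on RMC-7977 and 8.34 to 15.2 on RMC-4550. It was 11.9 to 27.1 CPM on Vehicle, 15.2 to 44.6 on Trametinib and 11.6 to 22.6 on Cobimetinib. Endothelial markers, 7 genes, summed to 18.9 to 77.9 CPM with RMC-7977, 45.4 to 69.2 with RMC-4550, 40.6 to 198 with Vehicle, 55.4 to 235 with Trametinib and 64.6 to 120 with Cobimetinib. CLDN5 and PECAM1 carried most of the endothelial sum on average, with means of 56.1 and 26.2 CPM. The others had means from 0.07 (KDR) to 2.58 CPM (VWF). CD14, a monocyte marker, carried most of the leukocyte sum on average, with a mean of 9.38 CPM, and was at its lowest, 1.60 CPM, in Trametinib replicate 4. It ranged from 7.97 to 16.9 CPM on Vehicle. Of the 12 leukocyte markers 4 had enough counts to be tested (CD14, LAPTM5, CSF1R and ITGAM). PTPRC (CD45) had a mean of 0.41 CPM, TYROBP 0.31, CD3E 0.09 and CD68 0.02, AIF1 was at 0 in 21 tumours, and NKG7, a marker of cytotoxic lymphocytes, was at 0 in all 22. LAPTM5 and the endothelial marker PECAM1 were called lower on RMC-7977 than on Vehicle, with log2 fold changes of -3.75 and -1.71 (adjusted p = 0.00591 and 0.0235, edgeR), and also than on Trametinib (-3.65 and -1.92). The leukocyte sum averaged 17.7 CPM on Cobimetinib and 21 on Vehicle, with overlapping ranges. Whether these marker reads came from the H2110 cells or from host cells is not known, as removal of host reads is not stated. The sums are therefore not a measure of cell content. In such bulk samples, fewer cells of a type and less RNA per cell cannot be told apart either. The part of any such cells or of their RNA in the values of OASL, IFIT2, IFIT3 and HERC5 was not tested.

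BST2, IFI6 and IFI27 were highest on average on RMC-4550. BST2 (ENSG00000130303, chr19:17402939-17405648) had 31.3 to 83.4 CPM on Vehicle, with a median of 41.1. It had 61.0, 71.6, 99.1 and 53.5 CPM on RMC-4550, against 29.1, 26.9, 30.5 and 52.6 on RMC-7977. Trametinib gave 34.9, 33.2, 33.2 and 59.8 CPM of BST2, and Cobimetinib 37.8, 45.1, 30.5 and 47.6. All RMC-4550 tumours lay above all on RMC-7977 and Cobimetinib. BST2 had a log2 fold change of -1.03 ± 0.29 for RMC-7977 against RMC-4550 (95% interval -1.64 to -0.42), with an adjusted p of 0.234 by edgeR's quasi-likelihood test. In that comparison 1 member was higher (DHX58) and 2 lower (BST2 and MX2) without overlap, beside 8% of all genes, and 0.0906% of all genes were called. DESeq2 gave BST2 an adjusted p of 0.0783 there, and limma with library weights 0.024.

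IFI6 (ENSG00000126709, chr1:27666061-27672218) had 19.4 to 64.4 CPM on Vehicle, with a median of 40.9. It had 61.9, 71.5, 68.4 and 51.5 CPM on RMC-4550 and 30.5, 32.3, 24.5 and 52.4 on RMC-7977. Under Trametinib it had 37.6, 31.1, 28.9 and 25 CPM, and on Cobimetinib 9.89, 27.6, 22.3 and 58.9. RMC-4550 lay above all Trametinib tumours, with a log2 fold change of 1.04 ± 0.40 (adjusted p = 0.297, edgeR), and overlapped the other groups. IFI27, another small mitochondrial interferon-induced protein (ENSG00000165949, chr14:94104836-94116698), had 3.71 to 10.3 CPM on Vehicle, with a median of 7.48. It had 39, 15.3, 25.5 and 6.4 CPM on RMC-4550 and 8.49, 8.39, 9.44 and 15.8 on RMC-7977. IFI27 had 2.56, 6.50, 5.78 and 8.40 CPM on Cobimetinib. IFI27 had a log2 fold change of 1.5 ± 0.56 for RMC-4550 against Vehicle (adjusted p = 0.986, edgeR) and 1.88 ± 0.65 against Cobimetinib (adjusted p = 0.456, edgeR). IFI44L, also positive on RMC-4550 (log2 fold change 1.67 against Vehicle), had 16.4, 5.79, 2.06 and 1.90 CPM there, highest in replicate 1, whose AT-rich genes read high.

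Values on Trametinib turned on replicate 4 for several members. Of all 22 tumours this one had the highest leukocyte (44.6 CPM) and endothelial (234.7 CPM) marker sums, whose part in its values was not tested. Here ISG15 (ENSG00000187608, chr1:1001138-1014540) had 82.9, 32.5, 62.4 and 330.2 CPM. Under Vehicle it had 25.7 to 96.6 CPM with a median of 58.2, and on Cobimetinib 68.4, 61.4, 80.2 and 122. Under RMC-7977 ISG15 had 37.7, 53.1, 40.8 and 71.5 CPM, and on RMC-4550 73.1, 64.9, 82.1 and 32.3. For ISG15 the log2 fold change against Vehicle, 1.11 ± 0.45 on Trametinib, was -0.01 without Trametinib replicate 4. IFI27 had 11.6, 3.99, 6.35 and 62.2 CPM on Trametinib, and its log2 fold change of 1.45 ± 0.57 against Vehicle was -0.08 without that tumour. MX2, a GTPase that blocks nuclear entry of retroviruses (ENSG00000183486, chr21:41361943-41409390), had 1.88, 1.24, 0.90 and 13.9 CPM on Trametinib. It had 1.05 to 2.52 CPM on Vehicle with a median of 1.88, and 0.10, 0.48, 0.68 and 1.11 on RMC-7977. MX2 had 1.33 to 1.97 CPM on RMC-4550 and 0.77 to 1.63 on Cobimetinib. Its log2 fold change for RMC-7977 against Trametinib was -2.84 ± 0.73 (adjusted p = 0.0801, edgeR) and -1.11 without Trametinib replicate 4. Without that tumour MX2 passed instead for RMC-7977 against Vehicle, with a log2 fold change of -1.62 (adjusted p = 0.0445, edgeR, against -1.61 and 0.373 with it), and all-gene calls rose there to 3.01%.

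SAMD9, which restricts poxvirus replication (ENSG00000205413, chr7:93099513-93118023), was the member with the smallest adjusted p against Vehicle. It had 24.5 to 58.0 CPM on Vehicle, with a median of 27.3, where the highest value was that of replicate 1 and the next 33.1. SAMD9 had 49.95, 54.5, 52.8 and 52.6 CPM on RMC-7977 and 82.4, 35.1, 33.9 and 43.4 on RMC-4550. Under Trametinib it had 79.7, 45.0, 55.6 and 49.6 CPM, and on Cobimetinib 27.0, 35.9, 38.9 and 44.5. Apart from Vehicle replicate 1, the tumours on RMC-7977, RMC-4550 and Trametinib lay above those on Vehicle. The log2 fold change of SAMD9 was 0.81 ± 0.26 on Trametinib (adjusted p = 0.124, edgeR) and 0.68 ± 0.26 on RMC-7977 (adjusted p = 0.291, edgeR). Without Vehicle replicate 1 the values were 1.06 (adjusted p = 0.047) and 0.92 (0.0483), and SAMD9 then passed in both comparisons with edgeR's test, where 4.19% and 1.23% of all genes were called. Without the 4 libraries that stand apart, SAMD9 and MX2 passed for RMC-7977 (6.38% of all genes called) and SAMD9, PARP14, IFIT2 and IRF7 for Trametinib against Vehicle (15.1%). That fit kept Trametinib replicates 1 and 2, whose AT-rich genes read high, beside 5 Vehicle tumours of the opposite tendency.

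SAMD9 and IRF7 also lie at the extremes of GC content. The GC content of SAMD9 was 36.0%, at percentile 3.68 of all genes, and that of IRF7, the regulator of interferon genes, 66.8%, at percentile 98.4. IRF7 (ENSG00000185507, chr11:612553-615999) had 11.9 to 29.5 CPM on Vehicle, with a median of 20.9, and 12.1, 11.3, 19.1 and 8.80 on Trametinib. It had 19.0, 23.1, 13.4 and 26 CPM on RMC-7977, 11.2, 21.9, 26.7 and 18.5 on RMC-4550 and 20.3, 24.9, 19.0 and 25.8 on Cobimetinib. Tumours in which AT-rich genes read high were low for IRF7: Vehicle replicate 1 had 11.9 CPM and RMC-4550 replicate 1 had 11.2, each the lowest of its group. The log2 fold change of IRF7 on Trametinib against Vehicle was -0.69 ± 0.27 (adjusted p = 0.183, edgeR) and became -0.17 with an offset for GC content. IRF7 passed with edgeR without Trametinib replicate 3, where 7.84% of all genes were called. The log2 fold change of SAMD9 became 0.60 with the GC offset, whereas OASL kept -2.34 for RMC-7977 against Trametinib and -2.31 against Cobimetinib. In Vehicle replicate 1, 16 of the 20 members below the median GC content of all genes were higher than the mean of the other Vehicle tumours (median 0.63 in log2). Of the 17 members at or above that median, 8 were higher there (median -0.13). In Trametinib against Vehicle, 16 of the 20 AT-rich members and 7 of the 17 GC-rich members had positive log2 fold changes, with medians of 0.32 and -0.03.

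**Figure D5:**
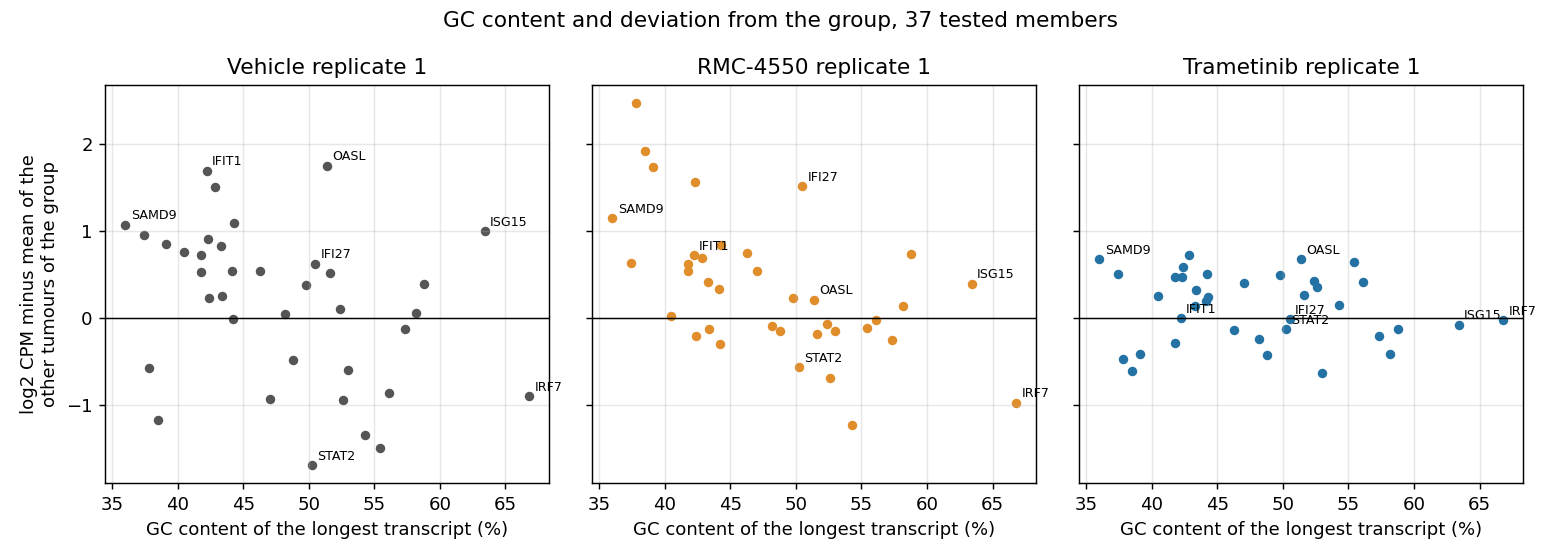
Log2 CPM in a tumour minus the mean of the other tumours of its group (vertical axis) against the GC content of the longest transcript (horizontal axis), 1 point for each of the 37 tested members, in 3 tumours. In Vehicle replicate 1 members of low GC content such as SAMD9 lie mostly above 0, and STAT2 and IRF7 lie below it.

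Several members of middle to high level had groups that mostly overlapped. The sensor DDX58 (RIG-I) had 22.8 to 44.2 CPM on Vehicle and 22.1, 29.8, 26.3 and 33.9 on RMC-7977. Its range was 26.6 to 34.6 CPM on RMC-4550, 29.6 to 39.3 on Trametinib and 21.6 to 34.7 on Cobimetinib. USP18, which also blocks the interferon receptor, had 13.4 to 21.8 CPM on Vehicle, 12.5 to 19.4 on RMC-7977 and 11.8 to 18 on RMC-4550. It had 11.8 to 19.0 CPM on Trametinib and 14.2 to 20.6 on Cobimetinib, so all 5 groups overlapped. OAS1, which makes the activator of RNase L, had 123 to 156 CPM on Vehicle. It had 113, 152, 106 and 169 CPM on RMC-7977, 130.3, 144, 130.2 and 144 on RMC-4550, and 119.6, 110.0, 123 and 209 on Trametinib. Cobimetinib gave 83.7, 113, 85.9 and 124 CPM of OAS1, below the RMC-4550 range in all tumours (log2 fold change of RMC-4550 against Cobimetinib 0.43, 95% interval 0.02 to 0.85, adjusted p = 0.759, edgeR). OAS3 had 71.4 to 219 CPM on Vehicle, 87.7 to 231 on RMC-7977, 76.5 to 237 on RMC-4550, 44.2 to 166 on Trametinib and 89.5 to 173 on Cobimetinib.

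PARP9 and its partner DTX3L, which act together as a ubiquitin ligase, and PARP14 overlapped between most groups, with a low value in Trametinib replicate 4 for DTX3L and PARP14. PARP9 had 86.3 to 121 CPM on Vehicle, 83.9 to 130.4 on RMC-7977, 100.2 to 131 on RMC-4550, 85.8 to 121 on Trametinib and 63.4 to 98.9 on Cobimetinib. DTX3L had 81.2 to 116 CPM on Vehicle, 72.8 to 115 on RMC-7977, 98.4 to 129 on RMC-4550, 52.8 to 118 on Trametinib and 69.6 to 102 on Cobimetinib. PARP14 had 78.2 to 106 CPM on Vehicle and 91.8, 124, 121 and 114 on RMC-7977. It had 91.7 to 107 CPM on RMC-4550, 94.7 to 117 on Cobimetinib, and 121, 114, 120.2 and 37.8 on Trametinib, where replicate 4 was far below the rest. For PARP14 the 4 intervals against Vehicle spanned -0.36 to 0.73 in log2, and none reached a 2-fold difference. PARP9 and DTX3L overlap on opposite strands only at chr3:122564238-122564577. Reads from that stretch cannot be told apart without the strand setting. STAT2 had 25 to 89.7 CPM on Vehicle, where replicate 1 was lowest and the next had 75.6. It had 53.0 to 94.8 CPM on RMC-7977, 48 to 77.1 on RMC-4550, 27.8 to 81.1 on Trametinib and 63.8 to 87.1 on Cobimetinib.

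By role, the 4 transcription factors STAT2, IRF1, IRF7 and IRF9 were all negative in Trametinib against Vehicle (median -0.57) and all positive in RMC-7977 against Trametinib (median 0.60), with 0 passing. Trametinib replicate 4, the shallowest library, was the lowest of its group for all 4 (27.8, 6.72, 8.80 and 0.96 CPM). All 4 also lie above the median GC content, at percentiles 56.2 to 98.4. The part of either in the shared direction of the 4 was not tested. Of the 4 OAS genes, 4 were negative in RMC-7977 and 4 in RMC-4550 against Vehicle, with medians of -0.08 and -0.25, and OASL was the largest in both. OAS1, OAS2 and OAS3 had -0.02, -0.02 and -0.14 on RMC-7977. On RMC-4550 they had -0.001, -0.45 and -0.05, and each of these values was smaller in size than its SE. Of the 10 further effectors tested, 8 were positive in RMC-4550 against Vehicle (median 0.51) and 9 in RMC-4550 against Cobimetinib (median 0.48). For the tested members whose levels are not given in every group above, the spans of the log2 fold changes follow. They were -0.08 to 0.49 in IFIH1 (MDA5), -0.61 to 0.49 in DHX58 (LGP2) and -0.08 to 0.13 in CMPK2, a mitochondrial kinase. They spanned -0.01 to 0.38 in RSAD2 (viperin), -0.23 to 0.62 in MX1, -0.34 to 0.46 in ISG20, -0.53 to 0.72 in IFI35 and -0.52 to 0.90 in EPSTI1. The widest spans were those of IFI44L (-0.84 to 1.67), SAMD9L (-0.89 to 1.70) and IFI44 (-1.22 to 1.10). IRF1 ranged from -0.38 to 0.71, IRF9 from -0.85 to 0.82, OAS2 from -0.67 to 0.66 and TRIM22 from -0.81 to 0.38. IFIT5 ranged from -0.33 to 0.78 and HERC6 from -0.64 to 0.65.

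Trametinib and Cobimetinib, which share a target, differed in 0 members by edgeR's quasi-likelihood test, with 0% of all genes called. At an unadjusted p under 0.05, there were 6 members (OAS1, SAMD9, IRF7, IFI27, SAMD9L and MX2) against 16.7% of all genes. SAMD9 and SAMD9L, adjacent paralogues on chromosome 7, were higher on Trametinib without overlap, beside 7.01% of all genes. The log2 fold change of SAMD9 was 0.65 (95% interval 0.06 to 1.25, adjusted p = 0.266, edgeR; 0.0351 without the 4 libraries that stand apart, where 0.501% of all genes were called higher) and that of IRF7 -0.81 (-1.40 to -0.21, adjusted p = 0.206, edgeR).

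The interferons themselves were scarce. Among 10 interferon genes only IFNE, an epithelial type I interferon, had enough counts to be tested, with a mean of 4.83 CPM. IFNE had 2.92 to 8.32 CPM on Vehicle, 1.02 to 4.67 on RMC-7977 and 5.67 to 10.2 on RMC-4550, and was at 0 in Trametinib replicate 4. IFNA2 and IFNG were at 0 in all 22 tumours, and IFNB1 had at most 5 counts. IFNL1, a type III interferon, reached 68 counts (10.9 CPM) in Trametinib replicate 4 and at most 0.39 CPM elsewhere. Receptor and kinase genes were well covered: IFNAR1 had a mean of 70.5, JAK1 of 198.5 and TYK2 of 151 CPM, whereas IFNAR2 had 1.62 CPM. Of the 72 other genes of the pathway, 60 were tested and 0 passed in any comparison with edgeR. These 72 genes are ligands, receptors and kinases, inducing genes, further responsive genes and brakes. SOCS3, a brake on JAK signalling, had 22.3 to 36.4 CPM on RMC-4550 against 8.09 to 12.1 on RMC-7977 and 4.80 to 13.8 on Trametinib, without overlap (8% and 3.98% of all genes). It had 6.28 to 37.6 CPM on Vehicle, which overlapped all 3 ranges, and 10.3 to 18.3 on Cobimetinib. Its log2 fold change for RMC-7977 against RMC-4550 was -1.51 ± 0.44 (adjusted p = 0.246, edgeR).

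Within groups, members tended to be high or low together in some tumours. RMC-7977 replicate 4 was the highest of its group for 23 of the 37 members, against 26.3% of all genes, and Cobimetinib replicate 4 for 21, against 17.3%. Vehicle replicate 1 was highest for 19 (35.4% of all genes) and RMC-4550 replicate 1 for 18 (38.5%). RMC-4550 replicate 4 was the lowest for 20 members, against 17% of all genes. Trametinib replicate 4 was highest for 15 and lowest for 15, against 33.5% and 55.2% of all genes. These shares are descriptions of single tumours and were not tested.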

How the data were processed

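Raw counts of reads for each gene were deposited in 1 table, which the authors made with fastp, HISAT2 2.0.5 and featureCounts 1.5.0-p3 on hg38, per the submitters' processing notes, which also list DESeq2 1.20.0 and edgeR 3.22.5. Whether counting used strand, which annotation was taken and whether host reads were filtered out is not stated (not given in the sources used here). Libraries were strand-specific, per the labels. The 58735 genes match GENCODE 29 in position, and GC content was taken from its transcripts.

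Counts were analysed in R 4.3.3 with edgeR 4.0.16: genes were kept with a minimum count of 10 (17652 genes, 99.718% of counts), scaled by TMM and fitted once to all 22 tumours (quasi-likelihood, 2-sided, Benjamini-Hochberg adjustment, threshold 0.05). The common dispersion was 0.1357. Log2 CPM used a prior count of 2, and intervals are at 95%. The fit was checked on simulated counts of 17414 genes. Nothing says that replicates came from separate animals, so p-values reflect only differences among these samples, possibly technical ones. No molecular identifiers are named, so depth gives counting error only.

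The members and gene lists were chosen with earlier results of these data known. Values per tumour, or ranges by group, are given for 12 members, the highest per length of each role and then the next highest. OASL, HERC5, IFIT2, IFIT3, SAMD9, IFI27, MX2 and IRF7, and other genes named with values, were chosen after their values were seen. The labels do not say what replicate numbers stand for. Deviations from group means of same-numbered tumours correlated (r = 0.17 to 0.71 over 3 numbers shared by RMC-4550 and Vehicle, 0.14 to 0.20 for Trametinib and Vehicle), and every such r passed 0.1 for these groups alone. The r of 0.71 was that of replicate 1, where AT-rich genes read high in both libraries. Vehicle replicates 5, 6 and 7 have no same-numbered tumour on a drug. Alternatives were DESeq2 1.42.0, limma 3.58.1 with library weights, RLE or library-size scaling, other filters, only the 2 groups compared, the replicate block, a GC offset, leaving out 4 libraries and leaving out each tumour.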

Additional observations from a re-analysis of the deposited data

Results flagged for a closer look

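Sets of values were the 20 members with levels given in every group above, and the mean of the members, in each of 5 groups. Each of these 105 sets was checked for a tumour far from the rest of its group by Dixon's test at 95%. Chance gives about 1 such value in 20 sets, and 15 were found. The sets share the same tumours, and some members were chosen after their values were seen. The number found therefore cannot be read as an excess over chance. They are log2 CPM, each with the nearest other tumour. In Vehicle replicate 1, STAT2 was low at 4.66 (next 6.24) and OAS3 at 6.16 (7.20). In the same tumour DDX58 was high at 5.47 (4.87), IFIT1 at 5.10 (3.75) and SAMD9 at 5.86 (5.05). Trametinib replicate 4 was high for BST2 at 5.91 (5.13) and low for USP18 at 3.58 (4.20) and PARP14 at 5.25 (6.84). BST2 was high in Vehicle replicate 7 at 6.38 (5.41). USP18 was low in RMC-7977 replicate 1 at 3.66 (4.20). In RMC-4550, PARP14 was low in replicate 1 at 6.52 (6.72), OASL low in replicate 2 at 1.06 (1.53) and MX2 high in replicate 4 at 1.09 (0.65). HERC5 was low in Trametinib replicate 2 at 3.10 (3.80). IFIT3 was high in Cobimetinib replicate 4 at 3.43 (2.64).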

How the results depend on the processing

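The number of members called was 0 in all 10 comparisons with edgeR on all tumours. It stayed at 0 with RLE or library-size scaling, without the filter, with a mean CPM of at least 1, with the GC offset and with the replicate number as a block. The block also gave 0 members where every correlation of same-numbered tumours passed 0.1 (RMC-4550 or Trametinib with Vehicle). Whether the numbers pair the tumours is not known. Among all genes it lowered the calls from 132 to 2 for RMC-7977 against Vehicle, from 5 to 0 for RMC-4550 against Vehicle, from 72 to 0 for RMC-7977 against Trametinib, from 5 to 0 for RMC-4550 against Cobimetinib and from 49 to 31 for RMC-7977 against Cobimetinib, and the MAPK output genes called against Vehicle to 0. A mean CPM of at least 1 raised Trametinib against Vehicle from 0 to 301 genes. DESeq2 called 4 members for RMC-7977 against Trametinib (4.32% of all genes called) and 3 against Cobimetinib (1.57%). For RMC-4550 it called 1 (0.946%) and 2 (0.674%) against the same drugs. With only the 2 groups compared, 2 were called for RMC-7977 (1.64% of all genes) and 1 for RMC-4550 (0.134%), both against Cobimetinib. Limma with library weights called 5 for RMC-7977 against Vehicle (16.7% of all genes called), 12 for Trametinib against Vehicle (44.6%) and 3 for Cobimetinib against Vehicle (2.27%). It called 2 for RMC-7977 against RMC-4550 (5.31%), 10 against Trametinib (30%) and 6 against Cobimetinib (8.7%). For RMC-4550 it called 7 against Trametinib (21.1%) and 4 against Cobimetinib (3.51%), and for Trametinib against Cobimetinib 9 (37.4%). Without the 4 libraries apart, 2 were called for RMC-7977 against Vehicle (6.38% of all genes called) and 4 for Trametinib against Vehicle (15.1%). For RMC-7977, 2 were called against Trametinib (5.3%) and 4 against Cobimetinib (3.79%). The same gave 3 for RMC-4550 (0.901%) and 1 for Trametinib (3.02%) against Cobimetinib. Leaving out each tumour in turn gave 0 to 1 for RMC-7977 against Vehicle (SAMD9 without Vehicle replicate 1, MX2 without Trametinib replicate 4), and 0 to 2 for Trametinib against Vehicle (SAMD9 and IFIT1 without Vehicle replicate 1, IRF7 without Trametinib replicate 3, where 7.84% of all genes were called). It gave 0 to 4 for RMC-7977 against Trametinib (OASL, HERC5, IFIT3 and MX2 without Trametinib replicate 2, where all-gene calls rose from 72 to 607), 0 to 1 against Cobimetinib and 0 to 1 for RMC-4550 against Cobimetinib (OASL), and 0 in the other 5 comparisons. Of 37 named fold changes, those of IFI27 reversed in Trametinib against Vehicle (-0.70 with library weights, -0.077 without Trametinib replicate 4 and up to 1.86 with another tumour left out) and in Trametinib against Cobimetinib (-0.40 with library weights). That of ISG15 reversed in RMC-7977 against Trametinib (0.47 with library weights). The weighted values on Trametinib rest mainly on replicate 2. The causes were not tested beyond the libraries named. Depth limits MX2, OAS2, TRIM22, XAF1 and UBE2L6 most.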
